A study of Phaseolus vulgaris with 18 samples.

Results

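NAC proteins are a large family of plant transcription factors, named after the petunia No Apical Meristem and the Arabidopsis ATAF and CUC proteins. They were followed here in bean (Phaseolus vulgaris 4004), in the growing grain and in the pod around it. The 76 NAC genes were chosen by their deposited descriptions, as rows whose text holds "NAC domain", "NAC (No Apical Meristem)" or "NAC-like", out of 27420 genes in the table. Total RNA of grain and pod was sequenced at 3 ages, 10, 15 and 20 DAF (taken to mean days after flowering), with 3 libraries in each of 6 groups and 18 in all. No treatment or genotype contrast is stated, nor how many plants gave the libraries. The p-values below therefore measure only the spread between these libraries, which may be technical.

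A NAC protein binds DNA through a conserved domain at its start and activates or represses through a variable tail. In Arabidopsis, members of the family switch on fibre and vessel wall thickening, others drive or delay leaf senescence and stress responses, and others set organ boundaries, the root cap or the seed coat. Some carry a membrane anchor and are released by cleavage. Roles below are those of the Arabidopsis match named in each description and were not tested in bean. By those matches, 10 genes were placed in a secondary wall list, 28 in a senescence and stress list, 2 in a membrane-bound list, 6 in a root and cap list, 3 in an organ boundary list and 27 in a remainder. The 76 genes share 41 distinct matches, and 57 of them share a match with at least 1 other gene. How reads shared between similar copies were counted is not given in the sources used here, so values of copies with 1 match are uncertain to that extent.

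The authors deposited TPM, a measure of transcript abundance that corrects for gene length and library size but keeps no read depth. Depth is therefore unknown and no counting interval was computed. The listed values summed to between 823001 and 999633 TPM in 17 libraries and to 436072 TPM in pod 15 DAF replicate 3. That library held the lowest of the 3 values of its group for 41 of the 46 NAC genes tested, and for 23 after the libraries were brought to a common sum. In young grain, at 10 DAF, the 50 most abundant genes took 15.4% to 17.2% of the total. Their share was 49.9% to 60.2% by 15 DAF and 58.4% to 72.8% by 20 DAF, while in pod it lay between 17.8% and 26.1%. The median of all genes tested fell by 1.08 on the log2 scale from grain at 10 DAF to grain at 20 DAF. Whether this fall follows from the larger share of the top genes was not tested. After scaling by the median ratio of the libraries it fell by 0.11. Counts that involve grain at 15 or 20 DAF are therefore given under both scalings. The pod 10 DAF columns could not be matched to replicate numbers and are called c1, c2 and c3. Library c2 correlated better with pod 15 DAF replicate 3 (Pearson's r over genes 0.938) than with either library of its own group (0.926 and 0.929). Grain 20 DAF replicate 3 likewise correlated better with grain 15 DAF replicate 1 (0.968) than with its own group (0.947 and 0.958).

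Tissue labels were checked against marker genes. A list of 14 grain storage and maturation genes summed to between 85138.6 and 136625.9 TPM in grain at 15 DAF and to between 16.0 and 77.7 TPM in pod at the same stage. A list of 8 seed coat genes summed to between 206 and 651 TPM in grain at 10 DAF and to between 12.8 and 38.8 TPM in grain at 20 DAF. The same 8 genes stayed at or below 1.74 TPM in every pod library, and 5 of them were listed at 0 in all 3 pod libraries at 10 DAF. In grain 3 of the 8 were at 0 in all 3 libraries at 10 DAF, and 4 at 15 and at 20 DAF. Only 3 of the 8 reached 1 TPM in 3 or more libraries, so the sums rest on few genes. The grain samples thus held seed coat transcripts, most at 10 DAF, and the pod samples held almost none. In bulk tissue such as this, fewer cells of a type and less RNA per cell cannot be told apart.

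With TPM as deposited, NAC transcripts were most abundant in pod at 20 DAF. The 76 genes summed to 636, 1145.1 and 799 TPM in the pod libraries at 10 DAF, to 1776.9, 1377.9 and 603 TPM at 15 DAF and to 2562.4, 2081.3 and 1701.2 TPM at 20 DAF. In grain they summed to 648, 507 and 615 TPM at 10 DAF, to 492, 390 and 257 TPM at 15 DAF and to 951, 743 and 543 TPM at 20 DAF. Every pod library at 20 DAF was thus above every grain library, and the grain and pod ranges overlapped at 10 DAF. Under median-ratio scaling this separation was gone: the sum at 20 DAF had a mean of 1510.3 in grain and 1482.3 in pod, and the scaled grain replicate 1 (2432.7) was above all 3 pod libraries. The 46 genes that reached 1 TPM in 3 or more libraries were tested. With TPM as deposited, 39 of them had their highest group mean in pod, 25 of them at 20 DAF, and 7 had it in grain. That tally was not made over all genes or under median-ratio scaling, so it is not shown to be particular to NAC genes. A few genes carried the grain total: the 3 most abundant NAC genes held 42.4% of it at 10 DAF, 52.4% at 15 DAF and 74.0% at 20 DAF, against 33.7%, 41.0% and 42.9% in pod.

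**Figure D1:**
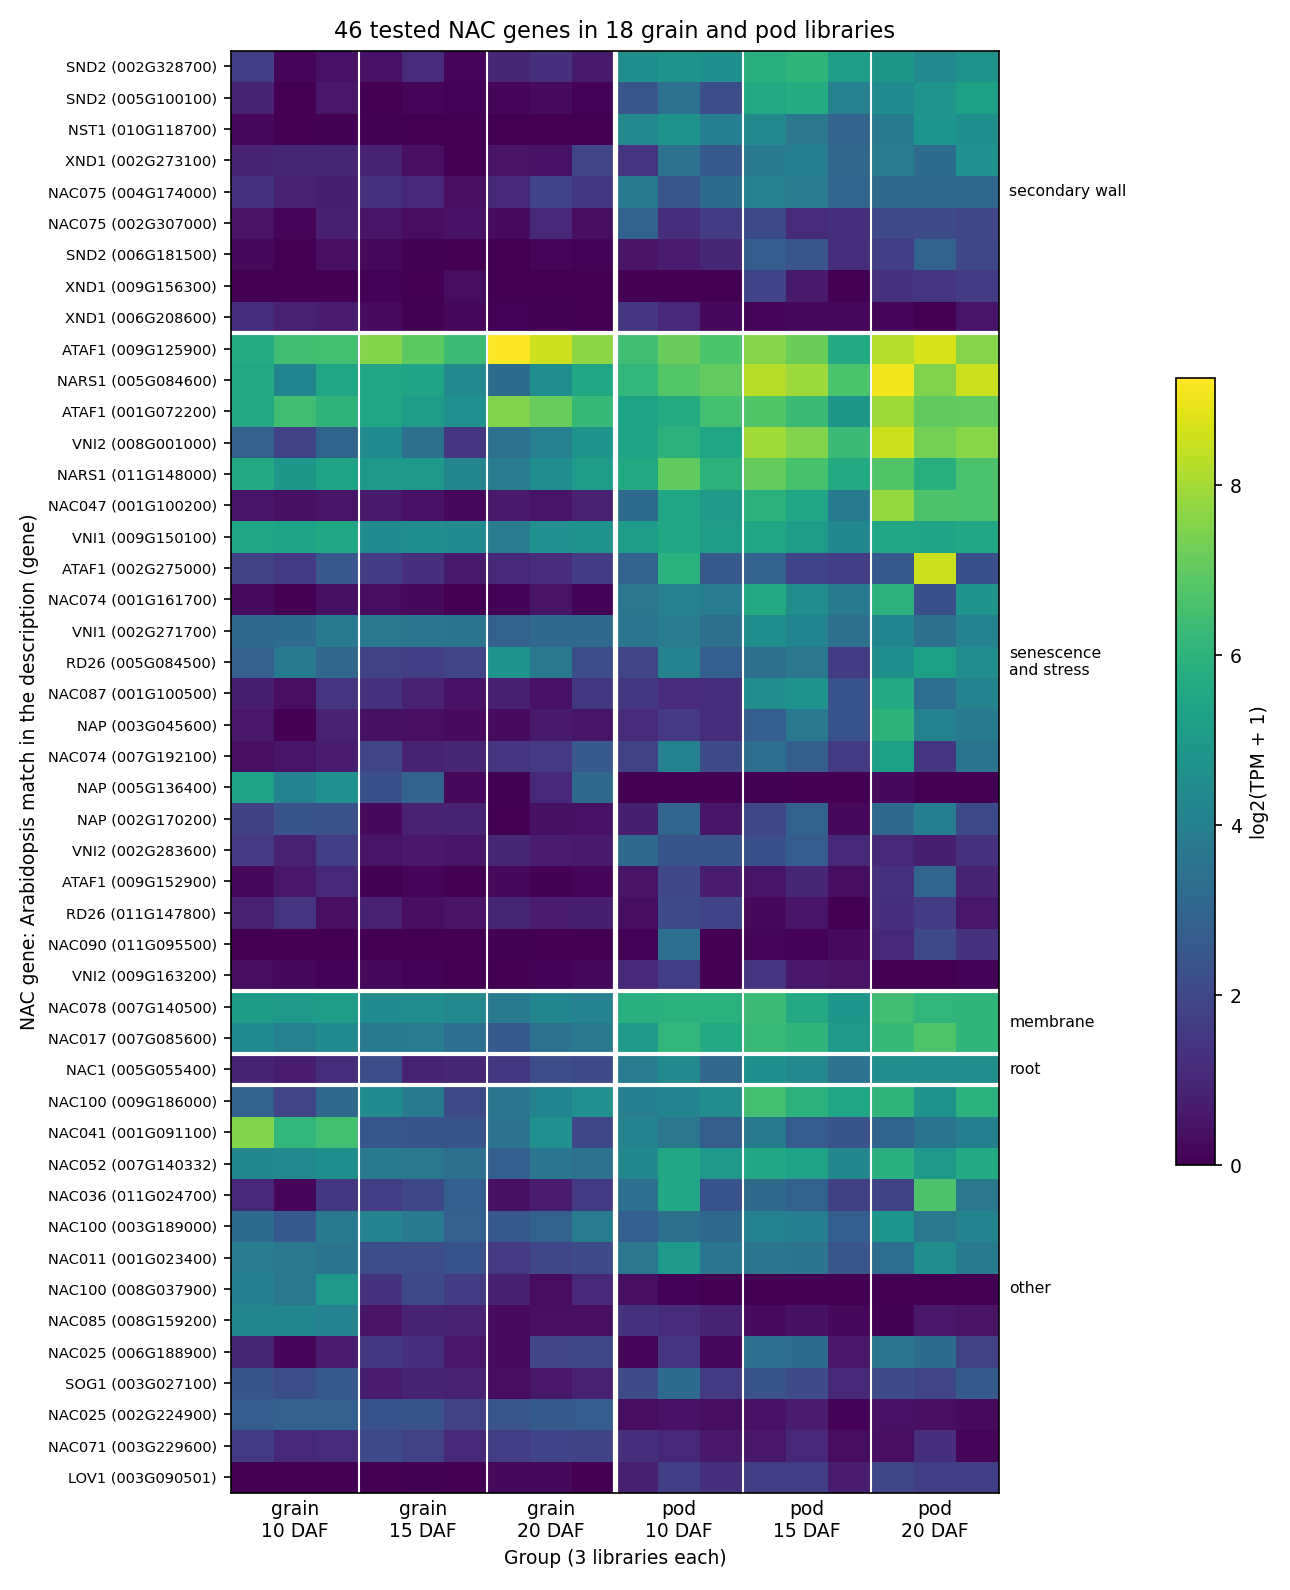
Level of the 46 tested NAC genes, as log2(TPM + 1), with 1 row per gene grouped by the role list of its Arabidopsis match and 1 column per library. The secondary wall rows are dark in all 9 grain libraries and most are brighter in pod, and the brightest cells lie among the senescence and stress genes.

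The first comparison asks which NAC genes differed between grain and pod of the same age. Each was tested with limma on log2(TPM + 1) across all 19861 genes that passed the filter, and calls required a log2 difference of 1 or more in size beside an adjusted p (Benjamini-Hochberg) below 0.05. Differences on this scale understate those of genes with low TPM. At 10 DAF, 17 of 46 NAC genes were lower in grain and 5 were higher, where 16.8% and 17.8% of all genes tested were called in those directions. At 15 DAF, 22 were lower and 4 were higher in grain, against 30.1% and 8.93% of all genes. At 20 DAF, 31 were lower and 2 were higher, against 56.7% and 6.25% of all genes. Median-ratio scaling gave 17 lower and 5 higher at 10 DAF (16.9% and 16.5% of all genes), 18 and 4 at 15 DAF (18.5% and 14.5%), and 18 and 4 at 20 DAF (20.1% and 14.1%). Over the 46 genes the median log2 difference was -0.63 at 10 DAF, -1.08 at 15 DAF and -1.64 at 20 DAF, where that of all genes was 0.02, -0.55 and -1.18. At all 3 stages 14 genes were called lower in grain, 11 of 46 under median-ratio scaling, and 1 was called higher, 2 under that scaling. The share of all genes called at all 3 stages was not computed, so these counts have no background beside them. Some of the genes counted reached 1 TPM in a single tissue only. Those genes entered the test only through the tissue in which they were high.

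The 10 genes of the secondary wall list together summed to at most 8.36 TPM in any grain library and to at least 58.7 TPM in any pod library. Of the 9 tested, 6 were lower in grain at 10 DAF, 7 at 15 DAF and 8 at 20 DAF, where 16.8%, 30.1% and 56.7% of all genes were. Under median-ratio scaling 6 were lower at each stage, against 16.9%, 18.5% and 20.1%. None was higher in grain. The matches of NST1 (Phvul.010G118700), SND2 (Phvul.005G100100 and Phvul.006G181500) and XND1 (Phvul.009G156300) reached 1 TPM only in pod libraries. They thus entered the test only through the tissue in which they were high. The list leaves out a gene described as VND6, which lay outside the rule by its wording and was present in grain at every stage (see other observations). NST1, which switches on wall thickening in Arabidopsis fibres, matched Phvul.010G118700. Pod libraries held 20.0, 27.1 and 14.6 TPM of it at 10 DAF, then 19.4, 11.8 and 6.82 TPM at 15 DAF, and last 13.4, 28.5 and 23.5 TPM at 20 DAF. In grain the highest of 9 values was 0.157 TPM, and it was listed at 0 in all 3 libraries at 20 DAF. Grain and pod libraries did not overlap at any stage. The log2 difference, grain minus pod, was -4.30 (SE 0.34, limma adjusted p = 8.96e-09) at 10 DAF and -3.64 (SE 0.34, adjusted p = 9.45e-08) at 15 DAF. Within pod its level did not pass the test between 10 and 20 DAF (log2 difference 0.06, SE 0.34, adjusted p = 0.952).

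A further 3 pod genes matched SND2, which acts below the NST and SND1 switches in Arabidopsis and raises cellulose synthase genes of the secondary wall. Phvul.002G328700 was at 23.2, 27.0 and 23.8 TPM in pod at 10 DAF, at 57.0, 65.1 and 35.3 TPM at 15 DAF and at 28.7, 19.7 and 25.7 TPM at 20 DAF. All 3 libraries at 15 DAF were above those of the other pod stages, although neither step passed the test (adjusted p = 0.112 and 0.166, and 0.0350 and 0.0364 under median-ratio scaling). In grain its highest value was 2.19 TPM. The difference between grain and pod at 15 DAF was -5.11 on the log2 scale (SE 0.37, limma adjusted p = 3.98e-09). Phvul.005G100100 was at 4.45, 9.87 and 3.56 TPM in pod at 10 DAF, at 48.0, 51.9 and 15.2 TPM at 15 DAF and at 21.2, 27.3 and 37.6 TPM at 20 DAF. Every later library was above every library at 10 DAF, and grain did not exceed 0.919 TPM. Phvul.006G181500 was lower throughout, with group means in pod of 0.684 ± 0.305 TPM at 10 DAF, 3.76 ± 2.20 TPM at 15 DAF and 3.96 ± 2.34 TPM at 20 DAF (SD, n = 3).

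The other genes of the list were less abundant. NAC075, which acts upstream of vessel wall regulators in Arabidopsis, matched Phvul.004G174000 at 8.57 ± 4.09, 12.2 ± 4.46 and 7.77 ± 0.315 TPM in pod at 10, 15 and 20 DAF, and at 1.02 ± 0.456, 0.951 ± 0.611 and 1.85 ± 0.758 TPM in grain (SD, n = 3). It was called lower in grain at each stage, but at 20 DAF no longer under median-ratio scaling (adjusted p = 0.156). XND1, a repressor of xylem wall formation in Arabidopsis, matched 4 genes. Of these, Phvul.002G273100 was at 5.52 ± 4.23, 11.8 ± 3.95 and 15.8 ± 8.08 TPM in pod and at no more than 2.80 TPM in any grain library. Its call at 10 DAF was lost without pod library c2 (adjusted p = 0.112). Another XND1 gene, Phvul.006G208600, was at 0.924 ± 0.367 TPM in grain and 0.992 ± 0.790 TPM in pod at 10 DAF and was called in no comparison.

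**Figure D2:**
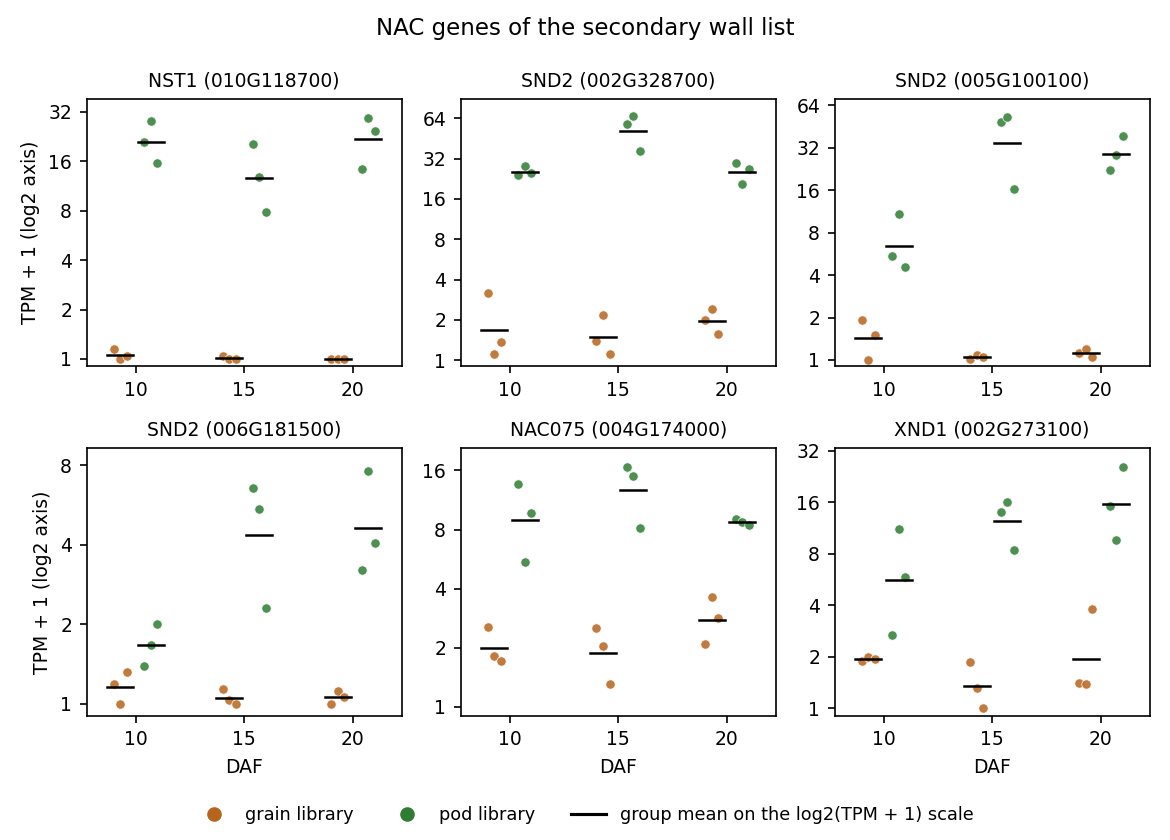
TPM + 1 on a log2 axis for 6 genes of the secondary wall list at 10, 15 and 20 DAF, with 1 point per library and a black line at each group mean on the log2(TPM + 1) scale. Pod points lie above grain points in nearly every panel and stage, and the SND2 gene 005G100100 goes from at most 9.87 TPM in pod at 10 DAF to at least 15.2 TPM later.

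Genes that secondary wall NAC proteins act on in Arabidopsis were taken as a companion list of cellulose synthase, xylan, lignin, fasciclin-like and MYB genes, 71 in all with 36 tested. Of these, 19 were lower in grain at 10 DAF, 26 at 15 DAF and 23 at 20 DAF, and 1, 0 and 0 were higher, beside the same shares of all genes lower (16.8%, 30.1% and 56.7%), so that the last count was near the background. Median-ratio scaling gave 19, 25 and 17 lower and 1, 2 and 2 higher, against 16.9%, 18.5% and 20.1% of all genes lower. The largest difference at each stage was that of Phvul.011G077400, matched to FLA11, a fasciclin-like protein of fibre walls. Pod libraries held 50.7, 215 and 136 TPM of it at 10 DAF, then 571, 523 and 283 TPM at 15 DAF, and last 131, 130 and 350 TPM at 20 DAF. Its highest value in grain was 4.27 TPM, so no grain library reached any pod library. At 15 DAF the difference was -7.58 on the log2 scale (SE 0.58, limma adjusted p = 8.14e-09). A further list of 23 xylem and secondary wall markers, which overlaps with the companion list, summed to 115 to 171 TPM in pod at 10 DAF, 179 to 557 TPM at 15 DAF and 176 to 350 TPM at 20 DAF. In grain that sum was 9.48 to 94.5, 16.3 to 70.8 and 8.41 to 38.4 TPM at the same stages. The part that the amount of xylem and fibre tissue has in the NAC differences was not tested.

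Outside the wall list, the genes most strongly lower in grain belonged to the senescence and stress list. NAC047, an ethylene-responsive gene in Arabidopsis, matched Phvul.001G100200, which had 8.52, 43.6 and 30.5 TPM in pod at 10 DAF, 60.9, 43.8 and 13.4 TPM at 15 DAF and 222, 101 and 97.1 TPM at 20 DAF. In grain it stayed between 0.152 and 0.819 TPM. Grain was below pod in every library, and the log2 difference was -4.09 (SE 0.52) at 10 DAF, -4.66 (SE 0.52) at 15 DAF and -6.33 (SE 0.52, limma adjusted p = 1.64e-08) at 20 DAF. NAC074, tied to stigma senescence in Arabidopsis, matched Phvul.001G161700 at 11.6, 15.3 and 13.7 TPM in pod at 10 DAF and at 60.8, 3.84 and 26.8 TPM at 20 DAF. The late pod libraries spread widely around a mean of 30.5 ± 28.7 TPM (SD, n = 3), yet all exceeded the highest grain value, 0.407 TPM. The difference was -3.63, -4.48 and -4.12 on the log2 scale at the 3 stages. NAC047 and this NAC074 gene reached 1 TPM only in pod libraries, and entered the test only through them.

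VNI2 and NARS1 were abundant in pod. VNI2, which in Arabidopsis restrains vessel formation and delays leaf ageing, matched Phvul.008G001000 with 48.3 ± 10.7, 169 ± 86.2 and 245 ± 118 TPM in pod and 5.22 ± 2.34, 10.8 ± 9.68 and 17.5 ± 8.51 TPM in grain at 10, 15 and 20 DAF (SD, n = 3). The differences were -3.05, -4.15 and -3.73 on the log2 scale. NARS1, known in Arabidopsis for seed coat degeneration and embryo development, matched Phvul.005G084600. It was at 69.3, 109 and 129 TPM in pod at 10 DAF and at 531, 181 and 363 TPM at 20 DAF, against 47.4, 17.0 and 42.4 TPM and 8.77, 22.3 and 44.6 TPM in grain. Its pod libraries were above the grain libraries at both stages. The difference was -1.58 (SE 0.56, limma adjusted p = 0.0317) at 10 DAF and -3.91 (SE 0.56, adjusted p = 1.13e-05) at 20 DAF. The call at 10 DAF was lost without grain replicate 2, pod c2 or pod c3 (adjusted p = 0.0747 to 0.167). A second NARS1 gene, Phvul.011G148000, was at 78.7 ± 41.6, 92.3 ± 41.9 and 86.4 ± 26.3 TPM in pod and at 40.2 ± 10.7, 26.1 ± 7.21 and 23.1 ± 9.17 TPM in grain. Its call at 20 DAF did not hold under median-ratio scaling (adjusted p = 0.193).

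Of the membrane-bound list, NAC017, a mitochondrial stress regulator in Arabidopsis, matched Phvul.007G085600 and was lower in grain at each stage. Its level was 49.8 ± 19.3, 56.6 ± 23.0 and 81.0 ± 21.0 TPM in pod and 19.3 ± 3.41, 12.3 ± 2.52 and 9.11 ± 3.57 TPM in grain (SD, n = 3). The call at 10 DAF was lost without grain replicate 2 (adjusted p = 0.0561) or pod c2 (adjusted p = 0.0662). NAC078, which raises flavonoid genes under strong light in Arabidopsis, matched Phvul.007G140500. Its level was 58.6 ± 1.60 TPM in pod and 32.6 ± 1.37 TPM in grain at 10 DAF, and 73.0 ± 10.9 against 16.0 ± 2.32 TPM at 20 DAF. It was called at 15 and 20 DAF, in neither case under median-ratio scaling, and at 15 DAF the difference no longer reached the threshold without pod replicate 1 (-0.75). NAC1, the only tested gene of the root and cap list and a lateral root factor in Arabidopsis, matched Phvul.005G055400. It was at 13.8, 20.7 and 7.32 TPM in pod at 10 DAF and at 23.0, 22.5 and 23.1 TPM at 20 DAF. Grain held 0.827, 0.651 and 1.30 TPM and 1.86, 3.67 and 3.27 TPM at those stages, below every pod library. The difference was -2.86 (SE 0.40, limma adjusted p = 1.16e-05) and -2.63 (SE 0.40, adjusted p = 1.83e-05).

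Against this background, 6 NAC genes were called higher in grain than in pod at some stage, 5 of them at 10 DAF. The share of all genes called higher at any stage was not computed. The matches of NAP (Phvul.005G136400), NAC100 (Phvul.008G037900) and NAC025 (Phvul.002G224900) reached 1 TPM only in grain libraries. They thus entered the test only through the tissue in which they were high. NAP promotes leaf senescence in Arabidopsis, and of the 3 bean genes matched to it Phvul.005G136400 was at 39.5, 16.1 and 25.0 TPM in grain at 10 DAF. In pod it was listed at 0 in all 3 libraries at 10 DAF and reached at most 0.167 TPM later. NAC100, a target of the microRNA miR164 in Arabidopsis, matched Phvul.008G037900. That gene was at 15.1, 12 and 29.6 TPM in grain and at 0.287, 0.074 and 0 TPM in pod at 10 DAF, a log2 difference of 4.06 (SE 0.29, limma adjusted p = 3.32e-09). It was listed at 0 in all 6 pod libraries at 15 and 20 DAF. NAC085, which with the DNA damage factor SOG1 holds back cell division in Arabidopsis, matched Phvul.008G159200 at 17.8, 18.2 and 16.3 TPM in grain and 1.53, 1.24 and 0.853 TPM in pod at 10 DAF. The 3 grain values lay within 2 TPM of each other, and the difference was 3.07 (SE 0.22, adjusted p = 3.49e-09).

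NAC041 (Phvul.001G091100) was the most abundant grain NAC gene at 10 DAF, with 179, 67.8 and 86.2 TPM against 16.7, 11.7 and 5.70 TPM in pod. The tissues did not overlap, and the log2 difference was 3.16 (SE 0.56, limma adjusted p = 0.000158). NAC025, expressed in the endosperm in Arabidopsis, matched Phvul.002G224900, the single gene called higher in grain at all 3 stages. It had 5.49, 6.25 and 6.09 TPM in grain at 10 DAF, 4.08, 4.15 and 2.53 TPM at 15 DAF and 4.40, 5.24 and 5.52 TPM at 20 DAF. Its highest pod value was 0.650 TPM. The differences were 2.42, 1.76 and 2.23 on the log2 scale (SE 0.23 each, adjusted p = 1.39e-07, 8.19e-06 and 3.35e-07). NAC071, which acts where cut stems reunite in Arabidopsis, matched Phvul.003G229600 at 2.28 ± 1.10 and 2.52 ± 0.280 TPM in grain against 0.596 ± 0.411 and 0.596 ± 0.683 TPM in pod at 15 and 20 DAF (SD, n = 3). Its log2 difference of 1.01 at 15 DAF lost the call without grain replicate 1 or 2 or pod replicate 1 or 3 (0.79 to 0.99). At 20 DAF it was 1.22, and without pod replicate 3 it was just under the threshold, leaving 1 gene called higher in grain at that stage. At 15 DAF NAP (Phvul.005G136400) was called as well (1.77, adjusted p = 0.0270), a call lost without any 1 of 5 of the 6 libraries (adjusted p = 0.0524 to 0.147). Seed coat markers were also highest in grain at 10 DAF and near 0 in pod, and their part in these genes was not tested.

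**Figure D3:**
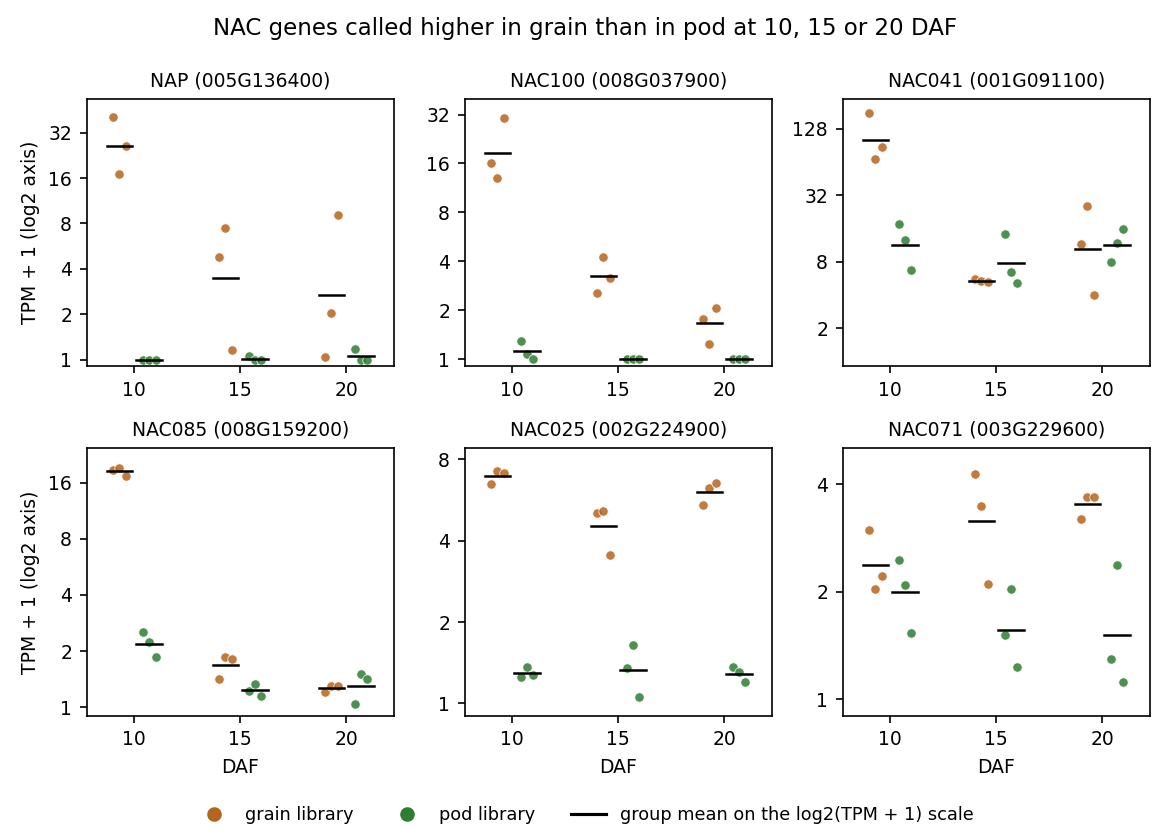
TPM + 1 on a log2 axis for the 6 NAC genes called higher in grain than in pod at 1 or more stages, with 1 point per library and a black line at each group mean on the log2(TPM + 1) scale. NAC085 drops from at least 16.3 TPM in grain at 10 DAF to at most 0.855 TPM later, while the NAC025 gene 002G224900 stays between 2.53 and 6.25 TPM in grain.

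The pod course asks which NAC genes changed as the pod aged. From 10 to 20 DAF 9 of 46 rose and 1 fell, where 5.38% and 6.72% of all genes were called. Median-ratio scaling gave 9 and 1 as well, against 4.64% and 8.03%. The median log2 change of the 46 was 0.51, against 0.10 over all genes. The largest rise was that of a NAP gene, Phvul.003G045600, from 1.17, 1.93 and 1.33 TPM to 62.4, 15.7 and 13.0 TPM. Every library at 20 DAF was above every library at 10 DAF, with replicate 1 far above the others, and the log2 change was 3.32 (SE 0.45, limma adjusted p = 6.56e-05). NAC087, which with NAC046 acts in root cap cell death in Arabidopsis, matched Phvul.001G100500 and went from 1.84, 1.23 and 1.33 TPM to 49.8, 9.12 and 16.6 TPM. The libraries did not overlap, and the change was 3.09 (SE 0.58, adjusted p = 0.00126). NAC047 rose by 2.46 (SE 0.52, adjusted p = 0.00341), from a mean of 27.6 ± 17.7 to 140 ± 71.0 TPM (SD, n = 3).

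Further risers joined from several lists. VNI2 (Phvul.008G001000) rose by 2.24 on the log2 scale (SE 0.60, limma adjusted p = 0.0174), a call lost without c1, c3 or replicate 1 of pod at 20 DAF (adjusted p = 0.0546 to 0.0868). SND2 (Phvul.005G100100) rose by 2.16 (SE 0.41, adjusted p = 0.00151) and SND2 (Phvul.006G181500) by 1.47 (SE 0.34, adjusted p = 0.00686). An XND1 gene, Phvul.009G156300, was listed at 0 in all 3 pod libraries at 10 DAF and had 1.48, 1.61 and 2.08 TPM at 20 DAF. This gene and SND2 (Phvul.006G181500) reached 1 TPM only in pod at 15 and 20 DAF. Both thus entered the test only through groups in which they were high. The second NAC025 gene, Phvul.006G188900, went from 0.102, 1.62 and 0.150 TPM to 11.4, 8.75 and 2.57 TPM. That rise of 2.34 (adjusted p = 0.0203) was lost without c1, c3 or pod 20 DAF replicate 1 or 2 (adjusted p = 0.0603 to 0.0918). ATAF1, an abscisic acid and wound responsive gene in Arabidopsis, matched Phvul.001G072200, which rose by 1.48 (SE 0.46, adjusted p = 0.0393). Its call was lost under median-ratio scaling (adjusted p = 0.0519) and without c1, c2 or pod 20 DAF replicate 1 or 3 (adjusted p = 0.0507 to 0.176). The single gene that fell was a second VNI2 match, Phvul.002G283600, from 8.02, 4.32 and 4.24 TPM to 1.12, 0.702 and 1.47 TPM, a change of -1.61 (SE 0.35, adjusted p = 0.00455). Copies with 1 match thus moved in opposite directions. When only the 6 libraries compared entered the fit, 1 gene rose and 0 fell, and without c3 3 genes fell. No share of all genes is given, here or elsewhere, for fits that leave out libraries.

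**Figure D4:**
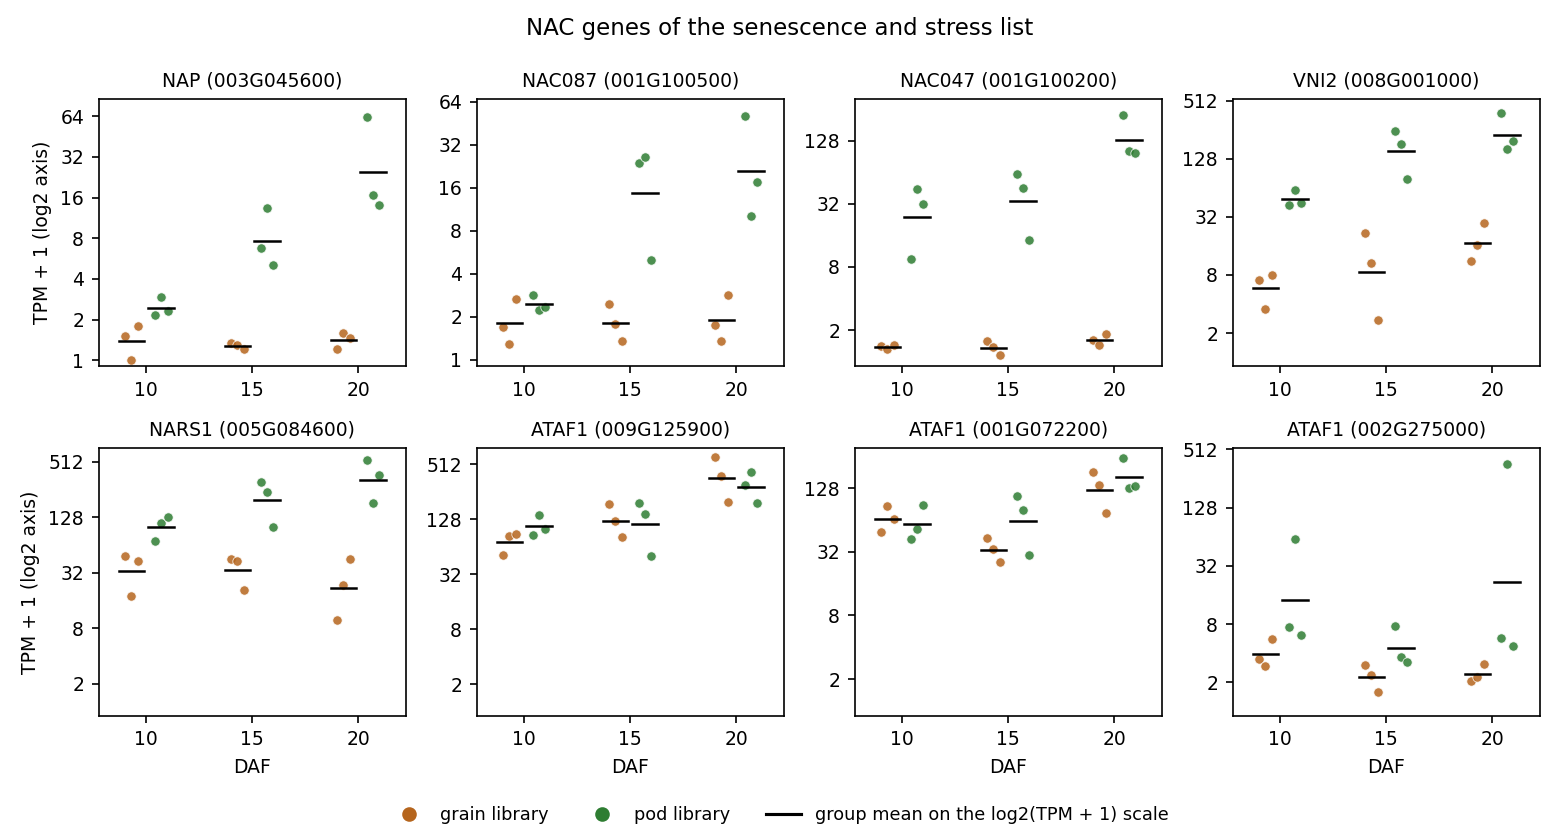
TPM + 1 on a log2 axis for 8 genes of the senescence and stress list at 10, 15 and 20 DAF, with 1 point per library and a black line at each group mean on the log2(TPM + 1) scale. NAP, NAC087 and NAC047 are higher in pod at 20 than at 10 DAF and stay at no more than 1.85 TPM in grain, whereas the ATAF1 gene 009G125900 has overlapping grain and pod points at 20 DAF; under median-ratio scaling, not drawn, it was called higher in grain there (1.74).

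Part of the pod change was in place by 15 DAF. From 10 to 15 DAF 5 NAC genes rose and 0 fell, where 1.51% and 5.25% of all genes were called, and median-ratio scaling gave 7 and 0, against 2.95% and 4.19%. At an unadjusted p below 0.05, limma gave 10 higher and 5 lower. No share of all genes by direction is given at an unadjusted p, here or below. The 5 were NAC087 (log2 change 2.58), SND2 (Phvul.005G100100, 2.43, and Phvul.006G181500, 1.38), NAC100 (Phvul.009G186000, 1.76) and NAP (Phvul.003G045600, 1.65). The NAC100 gene went from 14.5, 16.7 and 22.3 TPM to 89.1, 61.3 and 43.4 TPM. The call of this gene was lost without any library but pod 15 DAF replicate 3 (adjusted p = 0.0669 to 0.157). NAP lost its call without c1, c3 or pod 15 DAF replicate 2 (adjusted p = 0.0834 to 0.151), SND2 (Phvul.006G181500) without c1 or pod 15 DAF replicate 1 or 2 (adjusted p = 0.0708 to 0.0898), and NAC087 without pod 15 DAF replicate 2 (adjusted p = 0.0587). The number called in either direction was 3 without c1 or pod 15 DAF replicate 1 and 1, SND2 (Phvul.005G100100), without pod 15 DAF replicate 2. It was 0 when only the 6 libraries compared entered the fit. From 15 to 20 DAF limma called 0 NAC genes in either direction, where 1.11% and 0.519% of all genes were called. At an unadjusted p below 0.05, 10 were higher and 3 lower at 20 DAF, and median-ratio scaling called 1 lower, SND2 (Phvul.002G328700), against 1.88% of all genes lower and 0.811% higher. The count of 0 was 3 without pod 15 DAF replicate 1, and 1 without pod 15 DAF replicate 2 or 3 or pod 20 DAF replicate 3.

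The companion wall genes moved in the same interval. From 10 to 15 DAF 13 of 36 rose and 2 fell in pod, against 1.51% and 5.25% of all genes. From 10 to 20 DAF 4 rose and 3 fell, against 5.38% and 6.72%, and the falls were near that background. The largest rise was that of a gene matched to the lignin-forming laccase LAC4, Phvul.008G107100, from 0.045, 2.72 and 0.496 TPM at 10 DAF to 52.6, 29.7 and 16.8 TPM at 15 DAF and 51.6, 37.4 and 67.5 TPM at 20 DAF. All later libraries were above those at 10 DAF, a change of 4.10 (SE 0.41, limma adjusted p = 2.58e-05) to 15 DAF and 4.85 (SE 0.41, adjusted p = 1.04e-06) to 20 DAF. The largest fall to 15 DAF was that of Phvul.005G130800, matched to the xylan gene FRA8, by 1.74 (SE 0.39, adjusted p = 0.0108). The most abundant gene of the list, Phvul.L001754, another FLA11 match, was not called, with 57.4 to 151 TPM in pod at 10 DAF and 160 to 1679.8 TPM at 15 DAF. The count of 13 was 6 without c1, and 9 without c3 or pod 15 DAF replicate 2. It was 12 without pod 15 DAF replicate 3, the library with the low total, and 0 when only the 6 libraries compared entered the fit. The count of 2 falls was 6 without c2 and 1 without c1, and of the 3 falls to 20 DAF 5 were counted without c2.

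Senescence genes outside the NAC family were a companion list of 42, with 19 tested, of chlorophyll breakdown and senescence-associated genes. From 10 to 20 DAF 3 of the 19 rose in pod and 0 fell, against 5.38% and 6.72% of all genes. Median-ratio scaling gave 5 and 0, against 4.64% and 8.03%. The largest rise was that of PAO (Phvul.011G086700), the enzyme that opens the chlorophyll ring, from 19.4, 28.2 and 26.0 TPM to 132, 48.2 and 84.1 TPM. Pod libraries did not overlap, and the change was 1.71 (SE 0.46, limma adjusted p = 0.0186). The smallest of the 3 rises was that of PPH (Phvul.011G013400), pheophytinase, which removes phytol from pheophytin in chlorophyll breakdown, by 1.36 (SE 0.40, adjusted p = 0.0302). The other was AAO3 (Phvul.008G210000), the last enzyme of abscisic acid synthesis and a NAP target in Arabidopsis, from 1.31 ± 0.644 to 5.74 ± 1.87 TPM (SD, n = 3). The count of 3 was 1 without c1 or pod 20 DAF replicate 1, 6 without pod 20 DAF replicate 2 and 0 when only the 6 libraries compared entered the fit. Over the same interval 33 green tissue markers, summed, lay between 14140.1 and 36844.3 TPM in pod at 10 DAF and between 3930.6 and 11680.8 TPM at 20 DAF. Their part in the NAC changes was not tested.

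The grain course asks which NAC genes changed during seed filling. From 10 to 20 DAF 4 of 46 rose and 9 fell, where 2.67% and 52.9% of all genes were called. Median-ratio scaling gave 9 rises and 5 falls, where 8.39% and 16.7% of all genes were called. The median change of the 46 was -0.09 on the log2 scale, against -1.08 over all genes, and 0.36 against -0.11 under median-ratio scaling. The largest rise was that of ATAF1 (Phvul.009G125900), from 50.8, 83.8 and 86.3 TPM at 10 DAF to 614, 377 and 199 TPM at 20 DAF. It was the most abundant NAC gene in grain at 20 DAF, all 3 late libraries exceeded the early ones, and the change was 2.31 (SE 0.49, limma adjusted p = 0.000611). A second ATAF1 gene, Phvul.001G072200, was the single NAC gene called between 15 and 20 DAF in grain, where 0.896% of all genes rose and 5.05% fell. Median-ratio scaling called 3, all rises, against 2.62% and 4.69%. It went from 42.6, 33.0 and 24.5 TPM to 180, 136 and 73.2 TPM, a rise of 1.87 (SE 0.46, adjusted p = 0.0196). The call was lost when the 6 libraries were fitted alone (adjusted p = 0.0612) and without grain 15 DAF replicate 2 or 3 or grain 20 DAF replicate 1 or 2 (adjusted p = 0.0637 to 0.148). Without grain 20 DAF replicate 3 the count over this step was 4.

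The other 3 rises in grain were smaller. VNI2 (Phvul.008G001000) went from 5.22 ± 2.34 to 17.5 ± 8.51 TPM (SD, n = 3), a rise of 1.55 on the log2 scale (SE 0.60, limma adjusted p = 0.0301). NAC100 (Phvul.009G186000) went from 5.69 ± 2.58 to 17.8 ± 6.64 TPM, a rise of 1.51 (SE 0.51, adjusted p = 0.0153). NAC1 went from 0.926 ± 0.336 to 2.93 ± 0.950 TPM, a rise of 1.01 (SE 0.40, adjusted p = 0.0322). NAC1 lost its call in 4 of the 6 fits that left out 1 library (grain 10 DAF replicate 1 or 2, grain 20 DAF replicate 2 or 3, adjusted p = 0.0769 to 0.101). VNI2 lost its call without grain 10 DAF replicate 2 or grain 20 DAF replicate 2 or 3 (adjusted p = 0.0538 to 0.123), and NAC100 without grain 10 DAF replicate 2 (adjusted p = 0.0798) or grain 20 DAF replicate 3 (adjusted p = 0.0638). The count of rises was 1 without grain 10 DAF replicate 2. It was 2 when replicate 2 or 3 of grain at 20 DAF was left out, and without the latter the second gene was the other ATAF1, Phvul.001G072200. ATAF1 (Phvul.009G125900) kept its call in each of these fits. Under median-ratio scaling all 4 rises were larger, 1.90 to 3.60.

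The 9 falls in grain were led by the 4 genes that marked young grain. NAC085 fell by 3.85 on the log2 scale (SE 0.22, limma adjusted p = 5.27e-10), from at least 16.3 TPM at 10 DAF to 0.212, 0.303 and 0.308 TPM at 20 DAF. NAC100 (Phvul.008G037900) fell by 3.49 (SE 0.29, adjusted p = 3.89e-08), to 0.773, 0.242 and 1.06 TPM. NAP (Phvul.005G136400) fell by 3.29 (SE 0.63, adjusted p = 0.000228), to 0.036, 1.04 and 8.15 TPM, values that spread widely but stayed below all 3 at 10 DAF. NAC041 fell by 3.28 (SE 0.56, adjusted p = 7.6e-05), to 10.5, 24.5 and 2.96 TPM. All 4 kept their calls under median-ratio scaling, with changes of -3.24, -2.69, -2.55 and -2.06. NAC085 reached 1 TPM only in libraries at 10 DAF, and entered the test only through them.

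The remaining falls depended more on the scaling. SOG1, the DNA damage response factor, matched Phvul.003G027100 and fell by 1.80 on the log2 scale (SE 0.38, limma adjusted p = 0.000586), from 4.24 ± 0.646 to 0.519 ± 0.299 TPM (SD, n = 3), and kept its call under median-ratio scaling (adjusted p = 0.00453). NAC011 (Phvul.001G023400) fell by 1.84 and a further NAP gene, Phvul.002G170200, by 1.86, and neither was called under that scaling (adjusted p = 0.0533 and 0.0730). The NAP call was also lost without grain 20 DAF replicate 1 (adjusted p = 0.0561). NAC052, part of a gene silencing complex in Arabidopsis, matched Phvul.007G140332 and fell by 1.15, but its change was 0.06 under median-ratio scaling. NAC017 fell by 1.06, with 0.14 under that scaling. Both were lost without grain 20 DAF replicate 1, and NAC017 also without grain 10 DAF replicate 1 or 3 (adjusted p = 0.0596 to 0.122). Their levels therefore went down with the median gene of late grain and not relative to it.

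Most of this loss was in place at 15 DAF. From 10 to 15 DAF 6 NAC genes fell and 0 rose in grain, where 34.4% and 1.91% of all genes were called, and 4 rose and 5 fell under median-ratio scaling, against 5.58% and 10.1%. At an unadjusted p below 0.05, limma gave 0 higher and 13 lower among the 46, with no share of all genes given at that threshold. The falls of NAC genes were thus not shown to exceed those of all genes. NAC041 fell by 4.25 (SE 0.56, limma adjusted p = 1.62e-05), from at least 67.8 TPM to 4.54, 4.32 and 4.28 TPM. NAC085 fell by 3.45, NAP (Phvul.005G136400) by 2.92, NAC100 (Phvul.008G037900) by 2.52, SOG1 by 1.55 and NAC011 by 1.50. Seed coat markers, summed over 8 genes, had means of 361, 124 and 22.8 TPM at 10, 15 and 20 DAF. Of the senescence companion genes, the most abundant, SAG29 (Phvul.006G210800), was at 718, 436 and 754 TPM in grain at 10 DAF and 139, 354 and 416 TPM at 20 DAF, against at most 28.1 TPM in pod. SAG29 is a sugar transporter gene expressed in seeds as well as ageing leaves of Arabidopsis.

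The change from 10 to 20 DAF was compared between tissues as an interaction, grain minus pod. It was negative for 18 of 46 NAC genes and positive for 0, where 52.8% and 3.69% of all genes were called. Median-ratio scaling gave 7 negative and 4 positive, where 12.7% and 9.0% of all genes were called. Both counts under that scaling were near the background. With TPM as deposited the count of 0 stood beside 1 positive gene at an unadjusted p below 0.05. The share of NAC genes called negative, 39.1%, was thus not above that of all genes. Without c3 or pod 20 DAF replicate 2, 1 gene was positive. The 7 genes negative under both scalings were NAP (Phvul.002G170200 and Phvul.003G045600), NAC100 (Phvul.008G037900), NAC085, SND2 (Phvul.005G100100 and Phvul.006G181500) and XND1 (Phvul.009G156300). The XND1 gene and SND2 (Phvul.006G181500) passed the filter only through pod at 15 and 20 DAF. SND2 (Phvul.005G100100) and NAP (Phvul.003G045600) passed it only through pod, and NAC100 (Phvul.008G037900) only through grain. NAC085 and NAC100 fell in grain and stayed at or below 1.53 TPM in pod, whereas NAP (Phvul.003G045600) and the SND2 genes rose in pod and were at most 0.919 TPM in grain. The 4 positive under median-ratio scaling were ATAF1 (Phvul.009G125900, 2.34), NAC071 (1.86), VNI2 (Phvul.002G283600, 1.70) and NAC075 (Phvul.004G174000, 1.47).

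**Figure D5:**
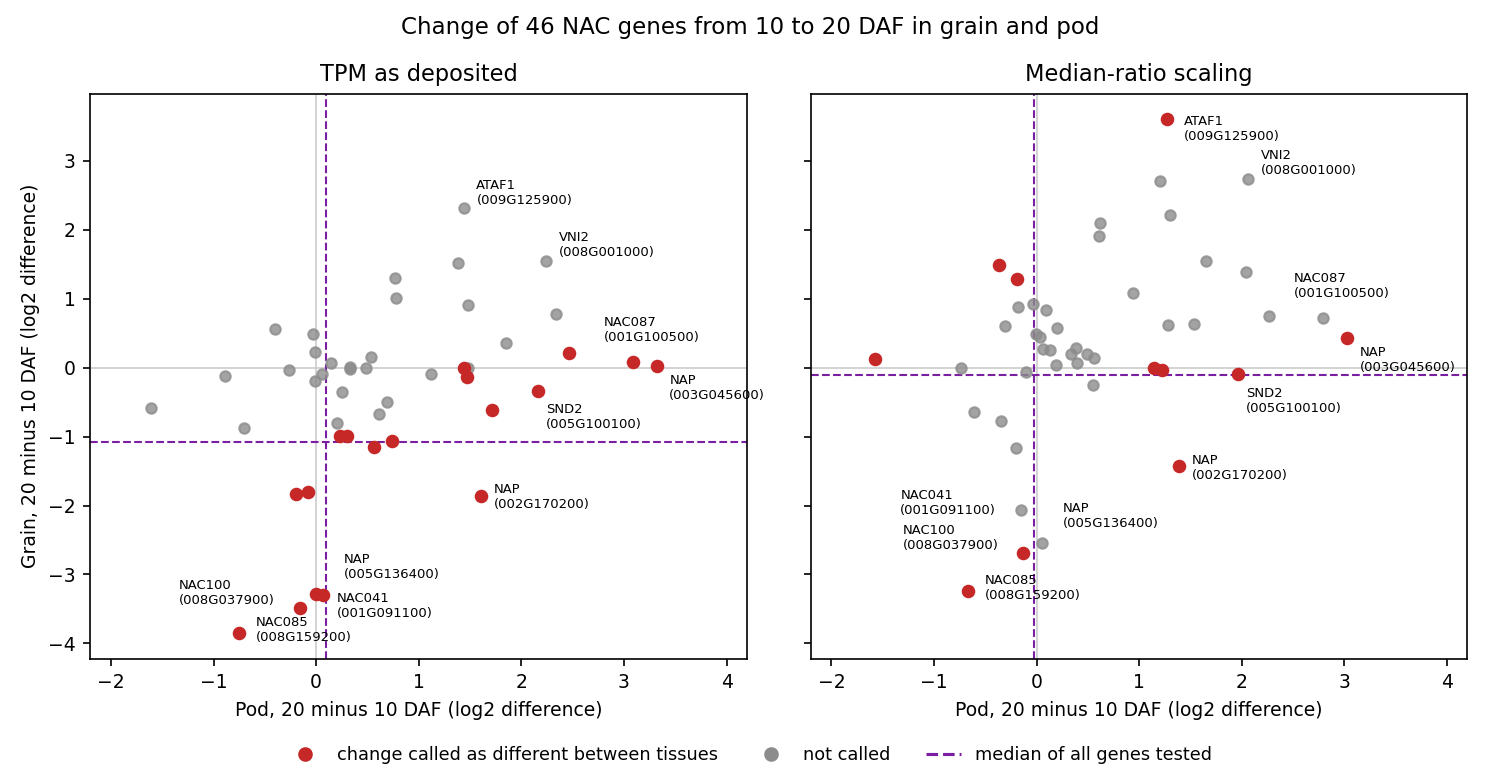
Log2 change from 10 to 20 DAF of the 46 tested NAC genes in pod (x axis) and grain (y axis), with TPM as deposited on the left and median-ratio scaling on the right. Red points are genes whose change was called as different between tissues, 18 on the left and 11 on the right, and dashed lines mark the median of all genes tested, which lies at -1.08 for grain on the left and at -0.11 on the right.

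Of the 22 matches held by more than 1 gene, 12 had at least 2 tested genes. With TPM as deposited, for 4 of these 12 the copies had their highest group means in different tissues, and for 8 all were highest in pod. The 3 NAP genes were of the first kind: Phvul.005G136400 was a gene of young grain, Phvul.003G045600 a gene of old pod, and Phvul.002G170200 was present in both, with 2.39, 4.20 and 3.96 TPM in grain at 10 DAF and 7.88, 14.5 and 3.27 TPM in pod at 20 DAF. Of the NAC100 genes, Phvul.008G037900 was almost confined to grain in these libraries, whereas Phvul.009G186000 was at 64.6 ± 23.0 TPM in pod against 12.9 ± 9.27 TPM in grain at 15 DAF (SD, n = 3). Another, Phvul.003G189000, was at 12.3 ± 5.61 TPM in pod and 12 ± 5.25 TPM in grain at that stage. Of the NAC025 genes, Phvul.002G224900 had its highest mean in grain at 10 DAF and Phvul.006G188900 in pod at 20 DAF. The latter was called lower in grain at 20 DAF (-1.52), but not under median-ratio scaling (-0.62, adjusted p = 0.428) or without grain replicate 1 or pod replicate 1 or 2 (adjusted p = 0.104 to 0.227). Similarity of the copies in sequence was not measured.

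Some high values came from single libraries. Another ATAF1 gene, Phvul.002G275000, was at 4.79, 363 and 3.75 TPM in pod at 20 DAF and at 6.51, 59.5 and 5.15 TPM at 10 DAF. NAC036 (Phvul.011G024700) was at 2.73, 101 and 11.7 TPM and at 9.43, 45.9 and 4.02 TPM in the same groups. NAC090 (Phvul.011G095500) was at 1.08, 3.28 and 1.51 TPM and at 0.070, 9.48 and 0 TPM. Each of these genes was highest in pod 20 DAF replicate 2 and in pod 10 DAF library c2 within their groups. The ATAF1 gene was called lower in grain at 20 DAF (log2 difference -3.14, SE 1.12, limma adjusted p = 0.0180), but -1.11 without pod replicate 2 (adjusted p = 0.150), and the call was also lost without grain replicate 1 (adjusted p = 0.0517) and under median-ratio scaling (adjusted p = 0.147). NAC036 kept its call at 20 DAF without pod replicate 2, and at 10 DAF lost it without c2 (adjusted p = 0.0975) or grain replicate 2 (adjusted p = 0.0675). NAC074 (Phvul.001G161700) went the other way in pod 20 DAF replicate 2, with 3.84 TPM against 60.8 and 26.8 TPM.

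The genes not called were of several kinds. Of the 46 tested, 5 were called in no comparison with TPM as deposited, among them RD26 (Phvul.005G084500), a drought and abscisic acid factor in Arabidopsis, with 27.6 ± 8.19 TPM in pod at 20 DAF and 14.2 ± 11.9 TPM in grain (SD, n = 3). No share of all genes called in no comparison is given beside that count. The other 30 members did not pass the filter, and their highest single value was 5.06 TPM. Among them 3 were listed at 0 in all 18 libraries. All 3 genes of the organ boundary list were in this set: the CUC2 match Phvul.005G074500, whose Arabidopsis counterpart separates organs and cotyledons, had at most 1.31 TPM, in grain at 10 DAF, and the second CUC2 match, Phvul.011G160400, at most 0.461 TPM. Of the 6 root and cap genes 5 were in it too, with at most 1.78 TPM for a match of SMB (Phvul.005G044600), the Arabidopsis root cap factor. These genes were below the filter in whole tissue and were not tested. NAC071, NAC090, RD26, ATAF1 (Phvul.002G275000), NAC100 (Phvul.003G189000), NAC075 and XND1 (Phvul.002G273100 and Phvul.006G208600) lay outside the rule for named genes and were singled out after their values were seen, as was AAO3.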

How the data were processed

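The authors deposited TPM per gene for 18 bean libraries, with gene descriptions naming Arabidopsis matches; aligner, counter, annotation and build: not given in the sources used here. RNA was extracted with TRIzol and libraries made with a SMARTER mRNA kit, per the labels' protocols. No sequences, promoters or proteins of these genes were used here. Genes below 1 TPM in more than 15 libraries were left out, and 19861 were tested on log2(TPM + 1) with limma 3.58.1 (R 4.3.3), with an intensity trend, all 6 group means in 1 model (12 residual degrees of freedom) and Benjamini-Hochberg adjustment over all genes. Median-ratio scaling used, for a library, the median over genes above 1 TPM in all libraries of its value relative to the gene's geometric mean.

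The members, role lists and companion lists were chosen with earlier results of these data known. Genes named were the 10 most abundant members, the 8 largest called differences each way reaching a mean of 5 TPM (3 in comparisons that involve 15 DAF), the 2 most abundant of each role list and every member called between 10 and 20 DAF. Of each companion list the largest called change each way and the most abundant gene were named. PPH was named as well, as the smallest of the 3 rises of senescence genes in pod from 10 to 20 DAF. Alternatives were a pseudocount of 0.1, no filter, a filter at 5 TPM, a common sum, median-ratio scaling, only the groups compared, a replicate block and leaving out each library. Companion counts under these settings were added after the data were seen. Checked on simulated data over 19861 genes for the comparison of grain at 20 with 10 DAF, the test called 53 of 100 genes changed by 1.5 on the log2 scale and 92 of 100 changed by 3. The changed genes were drawn from the more abundant ones, and no general shift across genes was simulated. These rates therefore need not hold for scarce members or for the real grain comparison. The labels do not say that replicate numbers pair samples, so the numbers were not taken as pairs. Deviations of libraries with the same number correlated at -0.114 to 0.237, values that were not tested.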

Additional observations from a re-analysis of the deposited data

Results flagged for a closer look

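The change from 10 to 20 DAF differed between grain and pod for 8 genes with the largest called differences, each by limma's test of the difference itself (grain change minus pod change, log2 scale). The 3 that fell in grain while pod stayed low were NAP (Phvul.005G136400, -3.36, adjusted p = 0.00499), NAC100 (Phvul.008G037900, -3.33, adjusted p = 1.59e-05) and NAC085 (Phvul.008G159200, -3.10, adjusted p = 1.97e-06). NAC041 (Phvul.001G091100) also fell in grain, at -3.28 (adjusted p = 0.00284). The 3 that rose in pod with grain at 1.85 TPM or less were NAP (Phvul.003G045600, -3.30, adjusted p = 0.000622), NAC087 (Phvul.001G100500, -3.01, adjusted p = 0.00569) and SND2 (Phvul.005G100100, -2.51, adjusted p = 0.00231). The remaining NAP gene, Phvul.002G170200, had -3.48 (adjusted p = 0.00420): it fell in grain, and its pod change of 1.61 did not pass the test (adjusted p = 0.107). Under median-ratio scaling 5 of the 8 kept the call, and NAP (Phvul.005G136400), NAC041 and NAC087 did not (adjusted p = 0.0830, 0.0916 and 0.0507). NAP (Phvul.005G136400) and NAC100 reached 1 TPM only in grain libraries, and NAP (Phvul.003G045600) and SND2 only in pod libraries. Each of these entered the test only through the tissue in which it was high.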

How the results depend on the processing

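Median-ratio scaling moved the most counts: grain from 10 to 20 DAF went from 4 rises and 9 falls to 9 and 5, grain against pod at 20 DAF from 2 higher and 31 lower to 4 and 18, and the tissue difference from 0 positive and 18 negative to 4 and 7; grain 15 to 20 DAF gave 3 calls instead of 1, and pod 15 to 20 DAF 1 instead of 0. It reversed 5 values of named genes: NAC017 (0.14) and NAC052 (0.06) in grain from 10 to 20 DAF, VNI1 (Phvul.009G150100) between tissues at 20 DAF (0.34, from -1.05) and in the tissue difference (0.21), and NAC078 in the tissue difference (0.13). Another 23 named-gene results lost their call and 87 kept it. The cause was not tested for any of these. Counts below, under the other settings, have no share of all genes beside them. Whether they moved more than those of all genes is therefore not shown. With a common sum, the calls were 9 instead of 5 in pod from 10 to 15 DAF, 2 instead of 0 in pod from 15 to 20 DAF, 3 in grain from 15 to 20 DAF, and 1 positive tissue difference. Fitting only the groups compared, with fewer residual degrees of freedom, left 1 of 9 rises and 0 of 1 falls in pod from 10 to 20 DAF, 0 calls in pod from 10 to 15 DAF and 0 in grain from 15 to 20 DAF. A pseudocount of 0.1 gave 2 falls in pod from 10 to 20 DAF, 4 higher in grain at 20 DAF and 3 calls in pod from 10 to 15 DAF, no filter 3 of the last, and the filter at 5 TPM 0 falls in pod from 10 to 20 DAF and 1 higher in grain at 20 DAF.

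Leaving out 1 library at a time, grain from 10 to 20 DAF gave 1 to 4 rises and 6 to 11 falls, and pod 6 to 12 rises and 1 to 3 falls. Grain against pod gave 5 higher and 12 to 18 lower at 10 DAF, 21 to 30 calls at 15 DAF, and 1 to 3 higher and 26 to 31 lower at 20 DAF. The tissue difference gave 0 to 1 positive and 16 to 23 negative. The shorter steps gave 6 to 8 calls in grain to 15 DAF, 0 to 4 in grain from 15 to 20 DAF, 1 to 7 in pod to 15 DAF and 0 to 3 in pod from 15 to 20 DAF. Of such results of named genes, 722 kept their call and 76 lost it.

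With the replicate block, 3 genes were called in grain from 15 to 20 DAF and 2 in pod from 15 to 20 DAF; grain from 10 to 20 DAF gave 4 rises and 9 falls, as without it. No paired analysis was possible for comparisons with pod at 10 DAF because its columns carry no number that the labels match. With TPM the read depth is unknown, and 30 members were too low to test.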

Other observations

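Genes of NAC type whose descriptions fell outside the wording used to choose members numbered 18, with 9 tested. They included matches of VND6, a vessel wall switch in Arabidopsis, and of membrane-anchored NTL proteins. From 10 to 20 DAF in grain 4 of the 9 fell and 0 rose, against 52.9% and 2.67% of all genes, and none was called under median-ratio scaling. The most abundant, Phvul.007G070700, described as VND6, had mean levels of 73.7, 24.2 and 23.1 TPM in grain at 10, 15 and 20 DAF, and 35.0, 29.7 and 44.9 TPM in pod. At 20 DAF 5 of the 9 were lower in grain than in pod, where 56.7% of all genes were, and 0 under median-ratio scaling. Both counts were near or below the background. Unlike NST1, this gene was thus present in grain at every stage. It was chosen after its values were seen.

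SAG18 (Phvul.002G259100), a senescence-associated gene in Arabidopsis, had 137, 14.2 and 6.89 TPM in grain at 20 DAF and 2.08 to 2.54 TPM at 10 DAF. It was the largest rise among the senescence companion genes in grain (2.94 on the log2 scale, limma adjusted p = 0.00153), and 1 library holds most of it. The largest fall there was that of SAG29 (Phvul.002G203600), from a mean of 66.4 to 8.92 TPM (-2.70, adjusted p = 1.02e-06).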
